A study of Homo sapiens with 12 samples.

Results

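The 56 genes described here are 38 immediate early genes and 18 genes of the NF-kB response, measured in human 293T cells that carried 1 of 3 plasmids. A probe set was used where the annotation of the array gave it 1 gene symbol and that symbol was on the list, so the rule itself uses no signal, although the lists were drawn up with earlier results of these data known. The array gave 1 symbol to probe sets of 19775 genes in all. Of the 56 genes, 49 had at least 1 probe set bright enough to test, which were 37 immediate early and 12 NF-kB genes. Another 5, the cytokine and chemokine genes CCL2, CXCL1, CXCL2, IL6 and TNF, had only dim probe sets. EGR2 and BIRC3 were not listed with a probe set of 1 symbol.

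Immediate early genes are transcribed within minutes of a growth factor, stress or depolarisation signal without new protein synthesis. MAP kinases and SRF with its partners switch them on, many encode transcription factors such as FOS, JUN and EGR1, and their messages are short-lived, in part because ZFP36 proteins speed their decay. Dual-specificity phosphatases close the response by switching the MAP kinases off. NF-kB dimers of the RELA, RELB, REL, NFKB1 and NFKB2 proteins wait in the cytoplasm bound to IkB proteins, and once released they switch on cytokine genes together with their own inhibitors NFKBIA and TNFAIP3.

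The study asked what CU1276, a small RNA derived from a tRNA, does to gene expression. The 293T line is a human embryonic kidney line that expresses the SV40 large T antigen. It was transfected transiently, with polyethylenimine, with an empty vector, with a vector expressing chr1.tRNA68-Gly(GCC) (the tRNA vector) or with a vector expressing the CU1276 hairpin (the hairpin vector). Cells were collected 48 hours later, and 12 µg of total RNA per sample was labelled with biotin for 1 array. Each group held 4 arrays that the labels call biological replicates, numbered 1 to 4. All 3 groups share the cell line and the transfection, and the labels name no untransfected cells, so the transfection itself is part of every value. The 2 comparisons with the empty vector share its 4 arrays, so they are not independent.

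The values are MAS5 signals, brightness values on a linear scale, and each array had been scaled to a trimmed mean of 500.1. The median signal of an array lay between 75.9 and 104. Of the 293T markers, 6 of 7 were above the filter and LHX1 was not, with a summed signal of 29292 to 36052 per array. Of 5 B cell markers 3 were above it, with sums of 217 to 420, and of 7 markers of T cells and myeloid cells 2, with sums of 270.3 to 581. Fibroblast markers were above it in 6 of 7 cases, with sums of 882 to 1495, and the ranges of the 3 groups overlapped for every marker list. In such bulk RNA, fewer cells of a type and less RNA per cell cannot be told apart. Control RNAs from Bacillus, added in labelling, had 3 levels, on the arrays numbered 1, on those numbered 2, and on those numbered 3 and 4, and their values are given with the comparison of numbers. Single signals below are in the order of replicate numbers 1 to 4, and 3 means in a row are those of the empty, the tRNA and the hairpin vector. After a signal ± is the SD over 4 arrays, and after a log2 difference it is limma's standard error. The fit behind that error left out the replicate number, so differences between numbers are part of it. The exact permutation tests left out the number as well.

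No measured gene of either list passed the test in any comparison between vectors. With limma and Benjamini-Hochberg adjustment over the 32768 tested probe sets, 0 were called in each of the 3 comparisons (0%), and the smallest adjusted p among the 49 genes was 0.999975 for the tRNA against the empty vector, 0.999907 for the hairpin against the empty vector and 0.999727 for the hairpin against the tRNA vector. At limma's unadjusted p under 0.05 the tRNA against empty vector comparison held 1 of the 49 genes, IER3, against a background of 4.26% of 13952 genes. For the hairpin against the empty vector it was also 1, MYC, against 2.74%. Between hairpin and tRNA vector there were 3, with MYC and FOS lower and ARC higher, against 4.56%. A share of 1 or 3 in 49 is near these backgrounds.

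The immediate early genes lay on both sides of 0 in each comparison. With the tRNA vector 21 of 37 were above the empty vector and 16 below it, with a median log2 difference of 0.042. With the hairpin vector 16 were above and 21 below, with a median of -0.042. Between the vectors 14 were above and 23 below, with a median of -0.051. The same medians over all 13952 genes were 0.0030, 0.0042 and 0.0028. The median 95% interval of an immediate early gene reached 0.40 to either side. Shifts of the size of these medians were thus not detectable gene by gene in this fit. It had 4 arrays per group and left out the replicate number.

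NF-kB genes were split as evenly. With the tRNA vector 7 of 12 were above the empty vector and 5 below, with a median of 0.026, and with the hairpin vector the counts were again 7 and 5, with a median of 0.025. Between the vectors 6 were above and 6 below, with a median of 0.0091. Their median interval reached 0.48 to either side. The groups of arrays did not overlap for IER3 alone with the tRNA vector (2.94% of all genes), for 0 of 49 genes with the hairpin vector (2.33%), and for MYC and FOS between the vectors (3.24%). The plot of differences from the empty vector shows that the widest intervals belong to dim genes such as DUSP2, ARC, PTGS2 and FOSB.

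**Figure D1:**
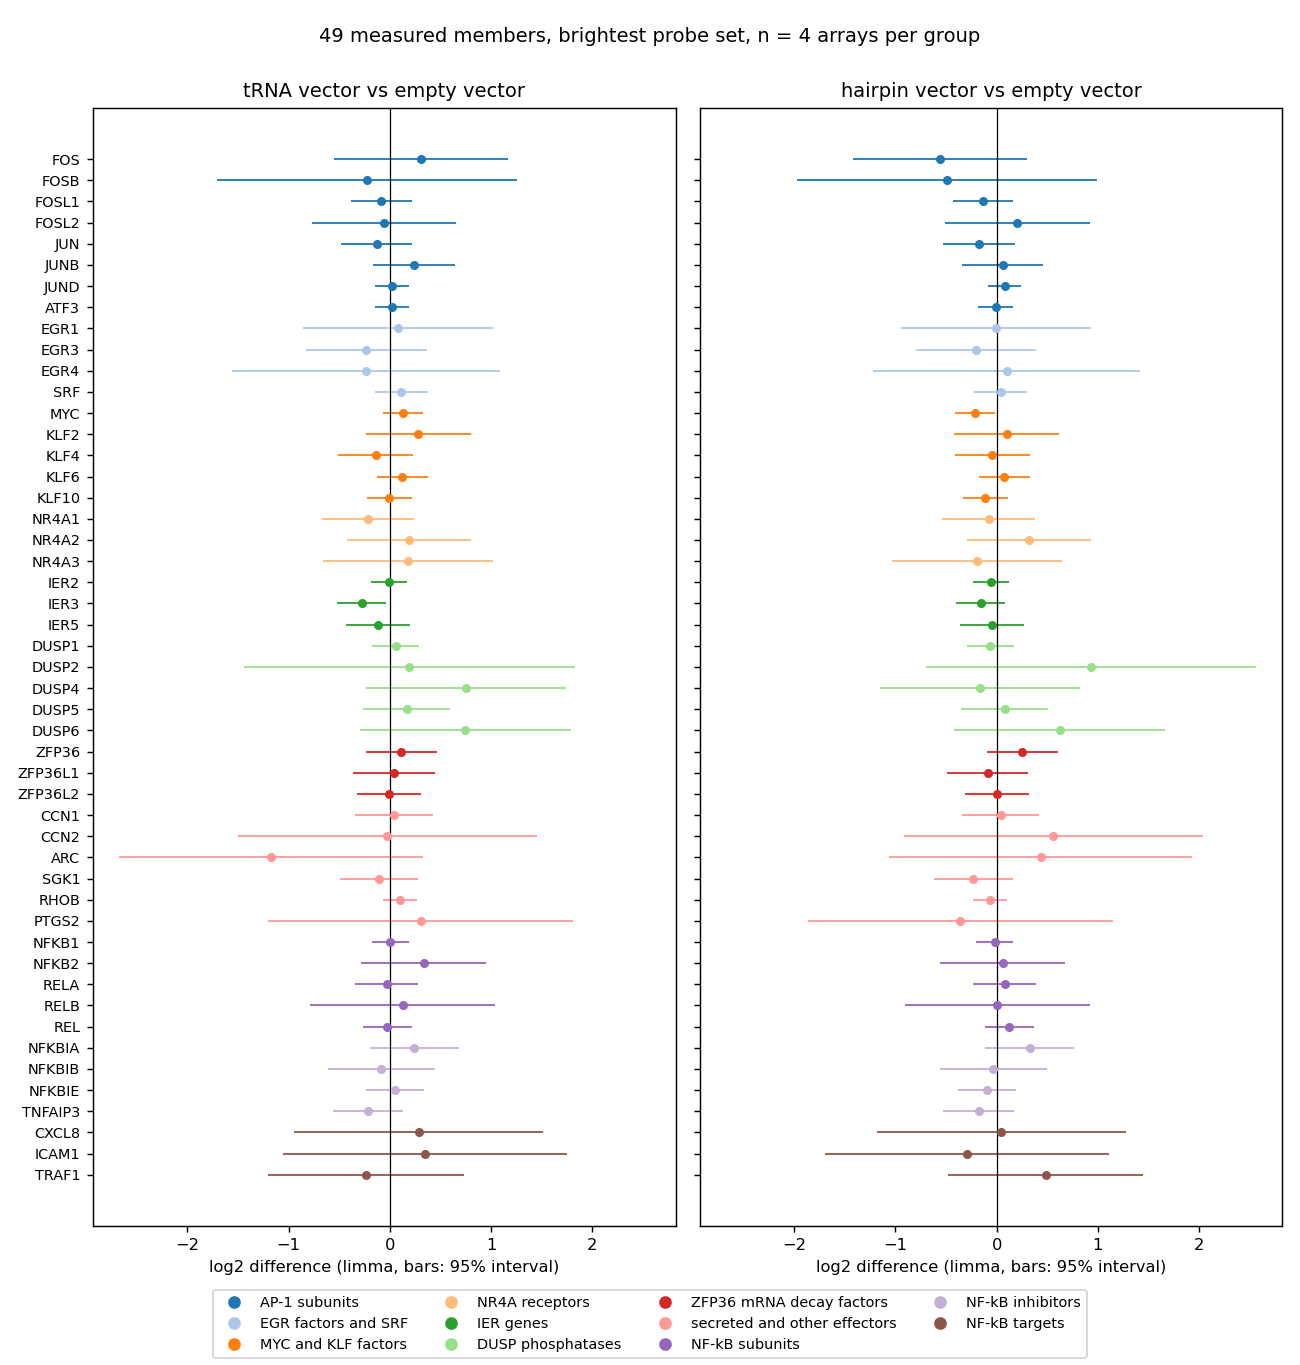
Log2 difference of each of the 49 measured genes from the empty vector, for the tRNA vector (left) and the hairpin vector (right), coloured by role; points are limma estimates from 4 arrays per group and bars their 95% intervals. All intervals cross 0 except those of IER3 on the left and MYC on the right, and neither gene passed after adjustment.

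The AP-1 subunits, which pair as FOS and JUN family dimers on DNA, gave 4 differences above 0 and 4 below with the tRNA vector, and 3 above and 5 below with the hairpin vector. FOS, the prototype immediate early gene (probe set 209189_at), had signals of 87.4, 190.3, 148 and 89.1 on the empty vector arrays, 195, 135, 155 and 127 on the tRNA arrays, and 34.3, 101, 117 and 114 on the hairpin arrays. All 4 hairpin arrays lay below all 4 tRNA arrays, the empty vector arrays overlapped both groups, and hairpin array 1 was the lowest of the 12. The log2 difference of hairpin minus tRNA vector was -0.87 ± 0.40 (95% interval -1.73 to -0.0084; limma's unadjusted p = 0.0481; exact two-sided permutation p = 0.0286, the smallest that 4 against 4 arrays allow). Without hairpin array 1 this FOS difference was -0.45. Against the empty vector FOS differed by 0.31 ± 0.40 with the tRNA vector (exact permutation p = 0.314) and by -0.56 ± 0.40 with the hairpin vector (exact permutation p = 0.371). Without hairpin array 1 the FOS difference of hairpin minus empty vector was -0.14, and without empty vector array 1 that of tRNA minus empty vector was 0.15.

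JUN, the partner of FOS, was bright on probe set 201464_x_at, with 5303, 7766, 7539.6 and 8103 on the empty vector arrays, 6518, 6008, 6842 and 6503 on the tRNA arrays, and 4243, 7089, 6953 and 7480.3 on the hairpin arrays. Array 1 was the lowest of its group with the empty and the hairpin vector but not with the tRNA vector, and the 3 groups overlapped. JUN differed from the empty vector by -0.13 ± 0.17 with the tRNA vector (exact permutation p = 0.4) and by -0.17 ± 0.17 with the hairpin vector (exact permutation p = 0.457). Hairpin minus tRNA vector was -0.039 ± 0.17. The 95% interval of the hairpin against empty vector difference ran from -0.53 to 0.18, and without hairpin array 1 that JUN difference was 0.018. For hairpin minus empty vector a second bright JUN probe set, 201466_s_at, gave -0.21 ± 0.13 (limma's unadjusted p = 0.124). At the control RNA levels it gave -0.19, -0.28 and -0.18. The dimmer 201465_s_at and 213281_at gave 0.046 ± 0.39 and 0.0088 ± 0.42, and none of these passed.

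The other AP-1 genes varied by how bright they were. ATF3, a stress-induced member of the ATF family, had signals of 10073 ± 956, 10188 ± 603 and 9985 ± 549 (SD, n = 4 each). JUND, the JUN protein that quiescent cells express, gave 5439.6 ± 416, 5522 ± 295 and 5746 ± 369.6. Both bright genes differed between vectors by at most 0.080 on the log2 scale, with standard errors of 0.079 and 0.077.

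JUNB, which can restrain JUN, gave 264 ± 39.1, 311 ± 40.8 and 278 ± 54.1. FOSL1, a FOS relative sustained by MAP kinase activity, gave 339 ± 26.9, 319 ± 19.1 and 309 ± 31.8. FOSL2 gave 135 ± 56.7, 121 ± 24.3 and 144 ± 24.2. The arrays of the 3 vectors overlapped for each of these genes. FOSB was dimmer and scattered more, with 101 ± 57.7, 67.1 ± 18.7 and 64.0 ± 42.1, and its single arrays ran from 15.4 to 142. Of these 4 genes JUNB had the largest tRNA minus empty vector difference, 0.24 ± 0.19, and FOSB the largest hairpin minus empty vector difference, -0.49 ± 0.69.

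EGR1, a zinc finger factor that growth factors induce through SRF, was measured by 3 probe sets, the brightest of which was 227404_s_at. Its promoter is shown because it carries the element that SRF binds. RefSeq places the 300 bases from 250 before to 50 after the EGR1 start at chr5:138465229-138465528, plus strand, in GRCh38.p14. They hold 2 CArG boxes, in capitals, which begin 105 and 83 bases before the start.
EGR1: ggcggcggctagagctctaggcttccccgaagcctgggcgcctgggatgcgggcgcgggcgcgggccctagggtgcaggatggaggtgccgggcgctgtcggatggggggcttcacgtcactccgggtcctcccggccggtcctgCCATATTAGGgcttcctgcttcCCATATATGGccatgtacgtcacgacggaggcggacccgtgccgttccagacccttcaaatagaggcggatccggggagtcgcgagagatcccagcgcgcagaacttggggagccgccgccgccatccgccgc
EGR1 signals were 1501, 1997, 697 and 735 on the empty vector arrays, 1523, 2352, 872 and 609.6 on the tRNA arrays, and 1097, 2180.2, 789.5 and 808 on the hairpin arrays. In every group arrays 1 and 2 were above arrays 3 and 4, and array 2 was the highest, so the spread within a vector was far wider than the gap between vectors. EGR1 differed from the empty vector by 0.078 ± 0.44 with the tRNA vector and by -0.0024 ± 0.44 with the hairpin vector, and hairpin minus tRNA vector was -0.08 ± 0.44 (exact permutation p = 0.857, 1 and 0.857). The 95% interval against the empty vector ran from -0.86 to 1.02 with the tRNA vector. These errors and this interval include the differences between numbers. With the replicate number as a block the standard error was 0.12, and no EGR1 comparison passed.

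EGR3, a related factor, gave 115 ± 24.6, 96.4 ± 5.78 and 101 ± 26.6. EGR4 gave 82.1 ± 52.5, 67.7 ± 36.7 and 76.0 ± 30.3, with single arrays from 19.5 to 144. SRF, the factor that binds CArG boxes and is itself a target of serum, gave 748 ± 87.9, 810.3 ± 110.2 and 765 ± 36.0. All 3 genes overlapped between groups in each comparison. SRF differed by 0.11 ± 0.12 with the tRNA vector and by 0.039 ± 0.12 with the hairpin vector.

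MYC, the growth-promoting transcription factor, showed the smallest p of the 49 genes between vectors. On its only tested probe set, 202431_s_at, signals were 5723, 5266, 5723 and 6051 on the empty vector arrays, 5930.2, 6355, 6689 and 5997 on the tRNA arrays, and 4086, 4836, 5251 and 5543 on the hairpin arrays. Every hairpin array was below every tRNA array, while the empty vector arrays overlapped both groups. Hairpin minus tRNA vector was -0.35 ± 0.092 (95% interval -0.55 to -0.15), a ratio of 0.785, with limma's unadjusted p = 0.00199 and an exact permutation p of 0.0286. The limma adjusted p was 0.9997, so MYC was not called. The exact test was adjusted over 40 gene and comparison pairs. These were the pairs of a fixed set of genes and, per list and comparison, of the genes highest and lowest by moderated t. The 40 pairs were thus partly picked on these same data. Exact tests given for other pairs or probe sets were not part of this adjustment. Among the 40 the adjusted value of MYC between the vectors was 0.381. It was the smallest of the 40, and FOS between the vectors and IER3 with the tRNA vector shared it.

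Against the empty vector MYC differed by -0.22 ± 0.092 with the hairpin vector (95% interval -0.41 to -0.017; exact permutation p = 0.0571) and by 0.13 ± 0.092 with the tRNA vector (95% interval -0.064 to 0.33; exact permutation p = 0.0857). The hairpin minus tRNA difference was below 0 at each level of the Bacillus control RNAs, at -0.54 for arrays 1, -0.39 for arrays 2 and -0.23 for arrays 3 and 4. With that level as a block the limma adjusted p for MYC was 0.167, which did not pass either. Without hairpin array 1 the hairpin minus tRNA difference was -0.26 and the hairpin minus empty difference -0.13, and both stayed below 0 whichever of the 12 arrays was left out.

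**Figure D2:**
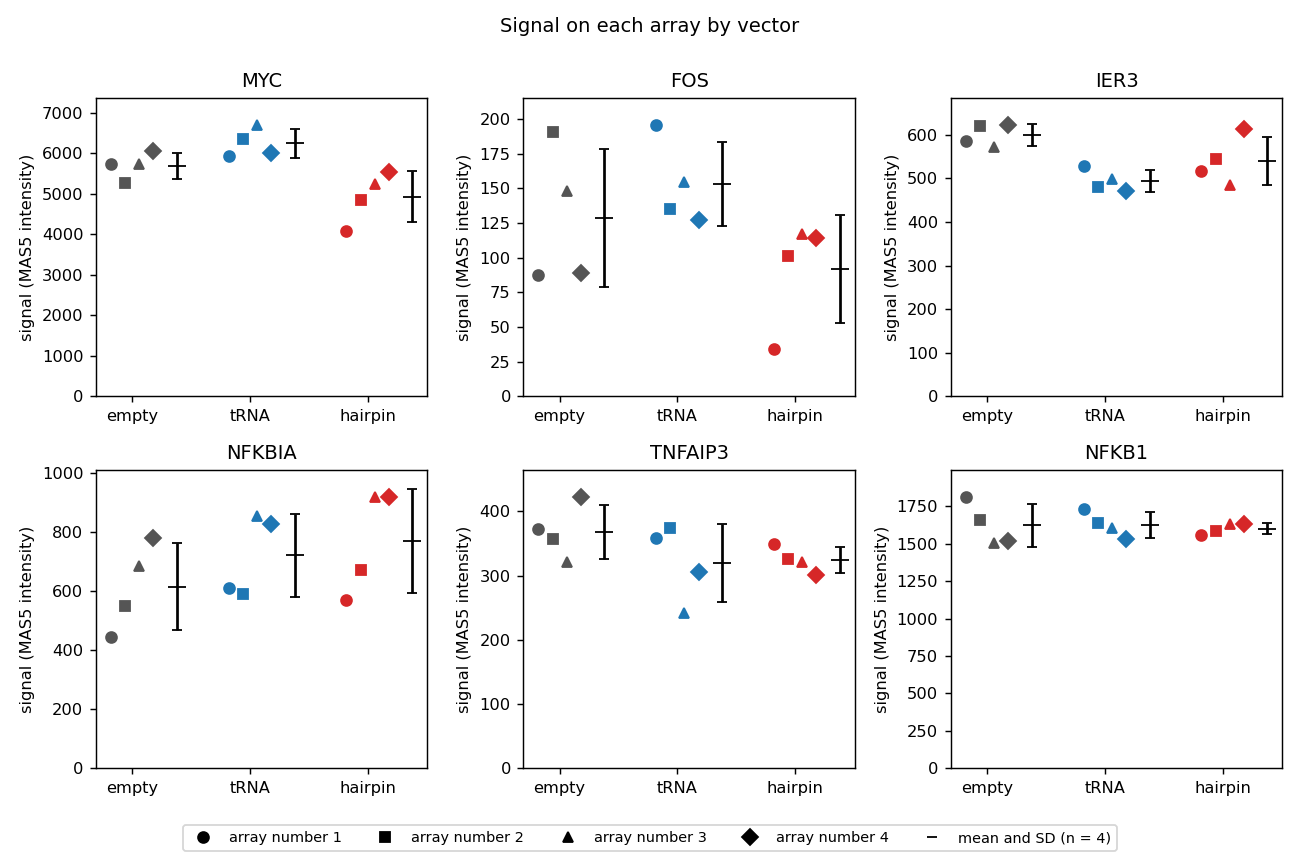
MAS5 signal of 6 genes on each of the 12 arrays, grouped by vector; symbols mark the replicate number and black bars the mean and SD of 4 arrays. MYC and FOS on the hairpin arrays lie below all tRNA arrays, IER3 on the tRNA arrays lies below all empty vector arrays, and the groups of NFKBIA, TNFAIP3 and NFKB1 overlap.

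The Krüppel-like factors gave no such separation. KLF10, which TGF-beta induces, gave 3874 ± 409.8, 3858 ± 467 and 3586 ± 346. KLF6 gave 1157 ± 83.4, 1263 ± 128 and 1228 ± 180.1. KLF4, a factor of epithelial differentiation and pluripotency, gave 546 ± 83.7, 499 ± 107 and 531 ± 93.0. The array ranges of these 3 genes overlapped in every comparison. KLF2, known for its role in endothelium under flow, gave 148 ± 31.5, 182 ± 49.9 and 158 ± 24.6. The largest difference of the 4 was that of KLF2 with the tRNA vector, 0.28 ± 0.24.

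The NR4A genes encode orphan nuclear receptors that respond to cyclic AMP and calcium. NR4A1 gave 294 ± 31.2, 257 ± 52.9 and 283 ± 64.2. NR4A2 gave 119.5 ± 26.7, 136 ± 25.4 and 152 ± 45.8 and differed by 0.32 ± 0.29 with the hairpin vector. NR4A3 gave 148 ± 74.2, 158 ± 30.9 and 133 ± 61.6, with the highest array of the 12 at 259.7 and the lowest at 55.8. With the tRNA vector 2 of 3 receptors were above the empty vector and with the hairpin vector 1 of 3.

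The 3 IER genes were below the empty vector with each vector, at medians of -0.12 for the tRNA and -0.059 for the hairpin vector, although none passed the test. IER3, a survival gene that NF-kB and p53 also regulate (probe set 201631_s_at), had signals of 584, 619, 572 and 622 on the empty vector arrays, 528, 481, 499 and 471 on the tRNA arrays, and 516, 544, 485 and 613 on the hairpin arrays. All 4 tRNA arrays were below all 4 empty vector arrays, and the hairpin arrays overlapped both. The difference of tRNA minus empty vector was -0.28 ± 0.11 (95% interval -0.52 to -0.037; limma's unadjusted p = 0.0268; exact permutation p = 0.0286), and at the 3 control RNA levels it was -0.15, -0.37 and -0.30. IER3 differed by -0.16 ± 0.11 between hairpin and empty vector (exact permutation p = 0.0857) and by 0.12 ± 0.11 between hairpin and tRNA vector (exact permutation p = 0.171). IER2 gave 3619.8 ± 192, 3604 ± 299 and 3477 ± 237. IER5, which acts with heat shock factor and protein phosphatase, gave 3480.5 ± 653, 3203 ± 529 and 3378 ± 611, and its array 1 was the highest of each group.

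The dual-specificity phosphatases, which switch MAP kinases off, were above the empty vector in 5 of 5 cases with the tRNA vector (median log2 difference 0.19) and in 3 of 5 with the hairpin vector (median 0.079), each read from its brightest probe set. None of them passed the test. With the tRNA vector the 3 further tested probe sets of these genes were below the empty vector, at -0.49 ± 0.30 and -0.44 ± 0.52 for DUSP1 (226578_s_at and 201044_x_at) and -0.14 ± 0.60 for DUSP6 (208892_s_at). DUSP4, which acts in the nucleus (probe set 204015_s_at), had signals of 53.9, 60.5, 69.7 and 89.3 on the empty vector arrays, 151, 105, 86.6 and 119 on the tRNA arrays, and 77.5, 104, 75.8 and 20.8 on the hairpin arrays. A single tRNA array, number 3, lay below the highest empty vector array, and hairpin array 4 was the lowest of the 12. The difference of tRNA minus empty vector was 0.75 ± 0.46 (95% interval -0.24 to 1.74; exact permutation p = 0.0571), and hairpin minus tRNA vector was -0.92 ± 0.46.

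DUSP6, which inactivates ERK in the cytoplasm, was close to the filter on probe set 208891_at, with 33.5, 82.7, 46.4 and 20.9 on the empty vector arrays, 69.8, 121, 49.5 and 51.0 on the tRNA arrays, and 61.3, 69.0, 57.8 and 62.0 on the hairpin arrays. The highest and the lowest of the empty vector arrays were further apart than the group means, and all groups overlapped. It differed by 0.75 ± 0.49 with the tRNA vector and by 0.62 ± 0.49 with the hairpin vector (exact permutation p = 0.229 and 0.229). Without empty vector array 4 the DUSP6 difference of hairpin minus empty vector was 0.31. A second DUSP6 probe set, 208892_s_at, gave -0.14 ± 0.60 with the tRNA and -1.42 ± 0.60 with the hairpin vector, the opposite sign in both comparisons.

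DUSP1, the phosphatase induced by stress and glucocorticoids, gave 3005 ± 423, 3115 ± 321 and 2866 ± 229. DUSP5 gave 203 ± 35.5, 227 ± 34.8 and 213 ± 33.0. DUSP2 gave 79.3 ± 56.9, 78.8 ± 45.9 and 109 ± 32.4, with single arrays from 10.6 to 142. DUSP2 differed by 0.93 ± 0.76 with the hairpin vector (exact permutation p = 0.371), and the arrays of all 3 genes overlapped.

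ZFP36 and its relatives bind AU-rich elements and speed the decay of cytokine and immediate early messages. ZFP36 (probe set 201531_at) had signals of 244, 222, 248 and 244 on the empty vector arrays, 292, 245, 278 and 224 on the tRNA arrays, and 286, 309.6, 230.0 and 326 on the hairpin arrays. Hairpin array 3 lay among the empty vector arrays and the other three hairpin arrays above them. The difference of hairpin minus empty vector was 0.25 ± 0.16 (95% interval -0.096 to 0.61; exact permutation p = 0.114). ZFP36L1 gave 782 ± 63.1, 826 ± 216 and 745 ± 156. ZFP36L2 gave 2315 ± 524, 2262 ± 143 and 2315 ± 454, with array 1 the highest of each group. Both relatives overlapped between vectors in each comparison.

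Among the remaining immediate early genes, ARC, which regulates receptor traffic at synapses, had the largest tRNA minus empty and hairpin minus tRNA differences of the list, on a dim probe set. That probe set, 210090_at, gave 94.7, 71.3, 50.5 and 109.8 on the empty vector arrays, 75.8, 139.8, 12.7 and 10.8 on the tRNA arrays, and 93.8, 102, 139 and 94.3 on the hairpin arrays. Among the tRNA arrays numbers 3 and 4 were far below the others and number 2 was the highest of all 12. Hairpin minus tRNA vector was 1.61 ± 0.70 (95% interval 0.11 to 3.11; limma's unadjusted p = 0.037), and the exact permutation p was 0.229. The tRNA minus empty vector difference was -1.17 ± 0.70 (exact permutation p = 0.371). At the 3 control RNA levels hairpin minus tRNA vector was 0.31, -0.45 and 3.29, so the sign was not the same at each. Without tRNA array 4 the hairpin minus tRNA difference was 1.05.

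CCN1, a secreted matrix protein that YAP and SRF control, gave 442 ± 93.7, 451 ± 69.8 and 449.8 ± 65.9. CCN2, its relative, was dim, with 56.0 ± 29.5, 52.2 ± 30.6 and 77.7 ± 43.1. PTGS2, which encodes the inducible cyclooxygenase, was dim as well, with 63.4 ± 24.7, 75.1 ± 13.8 and 67.6 ± 42.4. The 3 secreted or prostaglandin genes overlapped between all groups. RHOB, a small GTPase of endosomes, was bright, with 3889 ± 253, 4165 ± 272 and 3723 ± 213, and hairpin minus tRNA vector was -0.16 ± 0.078 (exact permutation p = 0.0571). SGK1, a kinase that serum and glucocorticoids induce, gave 313 ± 72.3, 286 ± 28.1 and 264 ± 33.6. Its hairpin minus empty vector difference was -0.23 ± 0.18.

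None of the 5 NF-kB subunits passed the test, with 3 of them above the empty vector under the tRNA vector and 4 under the hairpin vector. NFKB1, the precursor of p50 (probe set 209239_at), had signals of 1813, 1661, 1507 and 1520.1 on the empty vector arrays, 1735, 1639, 1603 and 1529.8 on the tRNA arrays, and 1561, 1585, 1629.9 and 1633 on the hairpin arrays. The hairpin arrays all fell within the range of the empty vector arrays. NFKB1 differed by 0.0038 ± 0.086 with the tRNA vector (95% interval -0.18 to 0.19), by -0.017 ± 0.086 with the hairpin vector and by -0.021 ± 0.086 between them. The exact permutation p values were 0.943, 0.886 and 0.686.

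RELA, the p65 subunit that carries the activation domain (probe set 201783_s_at), had signals of 3010.3, 1909.5, 2218 and 2273 on the empty vector arrays, 2479, 2440.3, 2078 and 2104 on the tRNA arrays, and 2734, 2812, 1894 and 2472 on the hairpin arrays. Empty vector array 1 was the highest of the 12 and hairpin array 3 the lowest. RELA differed by -0.033 ± 0.15 with the tRNA vector, 0.078 ± 0.15 with the hairpin vector and 0.11 ± 0.15 between them (exact permutation p = 0.886, 0.657 and 0.4).

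REL, the subunit prominent in lymphocytes, was measured on 4 probe sets. The brightest, 235242_at, gave 1973, 1837, 1817 and 1662 on the empty vector arrays, 1821, 2021, 1735 and 1602 on the tRNA arrays, and 2298, 2158, 1644 and 1898 on the hairpin arrays. Hairpin arrays 1 and 2 were the highest of the 12, and array 3 lay below every empty vector array. The difference was 0.12 ± 0.11 against the empty vector and 0.15 ± 0.11 against the tRNA vector (exact permutation p = 0.343 and 0.286).

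NFKB2, the precursor of p52 (probe set 207535_s_at), gave 119, 215, 244 and 186 on the empty vector arrays, 147, 331, 296 and 202 on the tRNA arrays, and 171, 257, 178 and 174 on the hairpin arrays. Array 2 was the highest with the tRNA and the hairpin vector, and array 1 the lowest of each group. The tRNA minus empty vector difference was 0.33 ± 0.29 (exact permutation p = 0.371), and without empty vector array 1 it was 0.12. RELB, its partner in the non-canonical pathway, gave 99.5 ± 47.7, 97.5 ± 21.8 and 91.3 ± 27.1 and differed by at most 0.13 on the log2 scale, with a standard error of 0.43.

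NFKBIA and TNFAIP3 are targets of NF-kB that feed back on it. NFKBIA encodes IkB alpha, which holds the dimers in the cytoplasm, and TNFAIP3 encodes A20, a ubiquitin-editing enzyme that stops the signal upstream. Both promoters are shown because they carry the decamer that NF-kB binds, in capitals. The NFKBIA window, chr14:35404700-35404999 on the minus strand of GRCh38.p14 from RefSeq, holds 1 consensus match that begins 81 bases before the start. The TNFAIP3 window, chr6:137867009-137867308 on the plus strand, holds 2, which begin 67 and 55 bases before the start.
NFKBIA: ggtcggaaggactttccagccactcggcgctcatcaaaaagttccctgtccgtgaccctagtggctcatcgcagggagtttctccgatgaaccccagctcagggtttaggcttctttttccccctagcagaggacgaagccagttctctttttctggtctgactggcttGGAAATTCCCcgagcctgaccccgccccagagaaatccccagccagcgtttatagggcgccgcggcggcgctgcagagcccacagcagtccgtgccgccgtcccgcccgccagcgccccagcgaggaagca
TNFAIP3: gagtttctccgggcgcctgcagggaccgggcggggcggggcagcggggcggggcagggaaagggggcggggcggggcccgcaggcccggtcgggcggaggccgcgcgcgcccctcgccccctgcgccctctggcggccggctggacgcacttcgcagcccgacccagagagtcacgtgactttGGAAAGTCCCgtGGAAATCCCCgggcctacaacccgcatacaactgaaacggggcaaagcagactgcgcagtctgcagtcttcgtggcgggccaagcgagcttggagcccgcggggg

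The NFKBIA signals (probe set 201502_s_at) were 445, 549, 684 and 780.0 on the empty vector arrays, 611, 588, 855 and 828 on the tRNA arrays, and 569.7, 672, 918 and 919 on the hairpin arrays. Arrays 3 and 4 were the highest of each group, and the groups overlapped. NFKBIA differed from the empty vector by 0.24 ± 0.21 with the tRNA vector (95% interval -0.20 to 0.68; exact permutation p = 0.343) and by 0.33 ± 0.21 with the hairpin vector (95% interval -0.11 to 0.77; exact permutation p = 0.257). Hairpin minus tRNA vector was 0.086 ± 0.21 (exact permutation p = 0.571). At the 3 control RNA levels hairpin minus empty vector was 0.36, 0.29 and 0.33, and tRNA minus empty vector was 0.46, 0.099 and 0.20. With both vectors each array was above the empty vector array of its number. With the level as a block the standard error was 0.096. Limma's unadjusted p was then 0.00388 for the hairpin and 0.0240 for the tRNA vector. The limma adjusted p was 0.808 for the hairpin and 0.600 for the tRNA vector, so neither passed. Without empty vector array 1 the NFKBIA difference of tRNA minus empty vector was 0.096. A dim second NFKBIA probe set, 231699_at, gave -1.03 ± 0.68 and -0.68 ± 0.68, the opposite sign in both comparisons.

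TNFAIP3 (probe set 202644_s_at) had signals of 373, 358, 321 and 423 on the empty vector arrays, 359, 375, 241 and 305 on the tRNA arrays, and 349.8, 326, 321 and 301 on the hairpin arrays. The lowest value was on tRNA array 3 and the highest on empty vector array 4, and the groups overlapped. It differed by -0.22 ± 0.16 with the tRNA vector (exact permutation p = 0.257), by -0.18 ± 0.16 with the hairpin vector (exact permutation p = 0.0857) and by 0.039 ± 0.16 between them (exact permutation p = 0.886). Without tRNA array 3 the TNFAIP3 difference of tRNA minus empty vector was -0.088, and hairpin minus tRNA vector was -0.091. NFKBIE, which encodes IkB epsilon (probe set 203927_at), had signals of 357, 337, 408 and 376 on the empty vector arrays, 403, 372, 364 and 387 on the tRNA arrays, and 326, 409.8, 319 and 336 on the hairpin arrays. Hairpin array 2 was the highest of the 12 and the other hairpin arrays were below the lowest of the empty vector arrays. Hairpin minus empty vector was -0.092 ± 0.13 and hairpin minus tRNA vector -0.14 ± 0.13 (exact permutation p = 0.371 and 0.171). NFKBIB, for IkB beta, gave 411 ± 71.5, 392 ± 111 and 414 ± 144.

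Targets of NF-kB that mark inflammation were at or near the filter, a geometric mean signal of 43.3. TRAF1, an adaptor of TNF receptors (probe set 205599_at), gave 49.1, 43.2, 80.8 and 119 on the empty vector arrays, 60.2, 37.7, 70.1 and 66.3 on the tRNA arrays, and 85.4, 125, 49.8 and 147 on the hairpin arrays. Hairpin arrays 2 and 4 were the highest of the 12 and hairpin array 3 lay among the others. Hairpin minus tRNA vector was 0.72 ± 0.45 (exact permutation p = 0.143) and tRNA minus empty vector -0.24 ± 0.45 (exact permutation p = 0.629). Without empty vector array 4 the TRAF1 difference of tRNA minus empty vector was 0.037.

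ICAM1, an adhesion molecule that leukocytes bind (probe set 215485_s_at), gave 22.0, 115, 274 and 113 on the empty vector arrays, 122, 150.3, 101 and 111 on the tRNA arrays, and 28.9, 126, 151 and 64.1 on the hairpin arrays. Its empty vector arrays held both the lowest and the highest of the 12 values. Hairpin minus tRNA vector was -0.64 ± 0.65 (exact permutation p = 0.4), and without hairpin array 1 it was -0.17. CXCL8, the neutrophil chemokine, gave 64.2 ± 38.8, 74.5 ± 42.4 and 58.4 ± 21.4, with single arrays from 22.5 to 128.5.

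The dim genes were not tested. CCL2, a monocyte chemokine, ran from 4.20 to 56.5 over the 12 arrays and CXCL1 from 7.82 to 94.2. CXCL2, on 3 probe sets, ran from 2.45 to 65.0. The cytokines IL6 and TNF ran from 7.27 to 92.7 and from 13.6 to 88.6. No order of groups is given for these 5 genes, because their mean log2 signals over the 12 arrays were under the filter.

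Where a gene had several tested probe sets, they often did not move together. The 24 such genes had 39 further probe sets, of which 22 had the sign of the brightest one with the tRNA vector, 22 with the hairpin vector and 21 between the vectors. Over the 3 comparisons, which share arrays, 5 of the 117 differences of these further probe sets had an unadjusted limma p under 0.05 (4.27%). These were 2 of 39 for tRNA against empty (5.13%), 3 for hairpin against empty (7.69%) and 0 for hairpin against tRNA vector. Of all 32768 probe sets 3.78%, 2.65% and 3.88% did in the same order. The hairpin against empty share was above its background, on only 3 probe sets, and was not tested. The 5 are named with the values in view. ATF3 probe set 1554420_at gave 0.81 ± 0.33 and 0.75 ± 0.33 against the empty vector, where the brightest ATF3 probe set gave 0.019 ± 0.079 and -0.0096 ± 0.079. EGR1 probe set 201693_s_at gave 1.57 ± 0.68 with the hairpin vector, and its empty vector arrays ran from 8.70 to 109. ICAM1 probe set 202637_s_at gave -1.83 ± 0.65 with the tRNA vector, with all 4 tRNA arrays below all 4 empty vector arrays (exact permutation p = 0.0286), against 0.35 ± 0.65 on the brightest. DUSP6 probe set 208892_s_at is given above. None passed after adjustment.

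Promoter windows of 300 bases were listed in RefSeq (GRCh38.p14) for 42 of the 56 genes, 27 immediate early and 15 NF-kB genes with 57 windows in all. The motifs were searched on both strands, and a match is a description of letters only. The NF-kB consensus decamer was found in 10 of the 15 NF-kB genes, which were BIRC3, CXCL1, CXCL2, IL6, NFKB1, NFKB2, NFKBIA, NFKBIB, REL and TNFAIP3, and in 4 of the 27 immediate early genes. By window it was in 11 of 22 for the NF-kB genes and in 5 of 35 (14.3%) for the immediate early genes, against 11.3% of 35116 windows of all genes. The CArG box was found in EGR1, EGR2 and SRF, which is 8.57% of the immediate early windows against 1.29% of all, and in 0 windows of NF-kB genes.

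The cyclic AMP element TGACGTCA was found in DUSP1, JUND and ZFP36L1, in 8.57% of immediate early windows against 1.85% of all. The AP-1 site TGANTCA was in 1 immediate early gene, FOSL2, and in CXCL8 and NFKBIB, against 7.71% of all windows. The EGR site GCGTGGGCG was in REL alone, against 0.795% of all windows. TATAAA was in 31.4% of immediate early windows, those of ATF3, CCN2, DUSP1, FOS, FOSB, JUNB, PTGS2, SGK1 and SRF among them, and in 18.2% of NF-kB windows, against 11.5% of all. No stretch can match both the AP-1 site and the cyclic AMP element, and the NF-kB consensus can match more than once at neighbouring positions.

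Genes around these lists were counted in the same fit, and 0 of them passed after adjustment in any comparison. Of 27 kinases and factors upstream of immediate early genes 19 were measured. Their medians were 0.0067, 0.021 and 0.014 for tRNA against empty, hairpin against empty and hairpin against tRNA vector. An unadjusted limma p under 0.05 was found for 1, 4 and 2 of the 19 (5.26%, 21.05% and 10.53%). The shares of all genes were 4.26%, 2.74% and 4.56%. The hairpin against empty share was the furthest above its background, on only 4 genes, and was not tested. MAP2K4, a kinase that activates JNK, had the largest moderated t in both hairpin comparisons. Its difference from the empty vector was -0.49 ± 0.086 (limma's unadjusted p = 5.1e-05, limma adjusted p = 0.835). From the tRNA vector MAP2K4 differed by -0.50 ± 0.086 (limma's unadjusted p = 4.4e-05, limma adjusted p = 0.363). MAP2K2, a kinase of ERK, had the largest moderated t for the tRNA against the empty vector, at 0.26 ± 0.10.

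Of 37 further primary response and feedback genes 33 were measured, with medians of 0.012, -0.063 and -0.038. At an unadjusted limma p under 0.05 there were 3, 2 and 1 genes (9.09%, 6.06% and 3.03%), against 4.26%, 2.74% and 4.56% of all genes. The largest moderated t belonged to GADD45A with the tRNA vector (-0.20 ± 0.081), GADD45B with the hairpin vector (-0.44 ± 0.13) and ID2 between them (-0.22 ± 0.087). GADD45A and GADD45B act in stress responses, and ID2 is an inhibitor of helix-loop-helix factors.

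Of 31 NF-kB signalling components 26 were measured, with medians of 1.1e-04, -0.017 and -0.0084, and 0 had an unadjusted limma p under 0.05 in any comparison. TNFRSF1A, a TNF receptor, gave 0.30 ± 0.18 with the tRNA vector. TRAF3, an adaptor that restrains the non-canonical pathway, gave -0.14 ± 0.12 with the hairpin vector, and TAB2, an adaptor of the kinase TAK1, 0.14 ± 0.078 between the vectors. These were the largest moderated t values of the list. Of 20 further NF-kB targets 11 were measured, with medians of -0.069, -0.039 and 0.040. At an unadjusted limma p under 0.05 there were 1, 0 and 1 (9.09%, 0% and 9.09%), against 4.26%, 2.74% and 4.56% of all genes. IRF1, an interferon regulatory factor, gave -0.55 ± 0.16 for tRNA minus empty vector and 0.50 ± 0.16 for hairpin minus tRNA vector, which share the tRNA arrays. CD83, a marker of activated dendritic cells, gave 0.37 ± 0.17 with the hairpin vector.

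The replicate number was compared as well, after the values had been seen, because several of these genes tracked it. With the vector in the model, limma's F test over the 4 numbers called 8 of the 49 genes, 6 immediate early and 2 NF-kB genes, where 14.0% of all 13952 genes were called. The share of 16.3% is near that background and is no result about these genes as a group. The number took a median of 45.7% of the variance of a measured gene on the lists and the vector 10.9%, and the number's share was the larger in 41 of 49 (83.7%). Over all genes the medians were 39.2% and 12.9%, and the number's share was the larger in 10675 of 13952 (76.5%), so this too is near the background.

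EGR1 differed most between numbers, with geometric mean signals over the 3 arrays of a number of 1358, 2172, 783 and 713 for numbers 1 to 4 (limma F test adjusted p = 1.19e-05). Number 2 was the highest and numbers 3 and 4 the lowest in all 3 groups, a range of 1.61 on the log2 scale. IER5 gave 4245, 3074, 3027 and 3062 (adjusted p = 2.20e-04 by limma), with number 1 above the rest in every group. NFKBIA gave 537, 601, 813 and 840.3 (adjusted p = 0.00202 by limma), with numbers 3 and 4 above 1 and 2 in every group. These 3 genes passed whichever of the 12 arrays was left out. The count over the 49 genes was 3 without empty vector array 1 or without hairpin array 1, and 5 without empty vector array 3 or without tRNA array 2.

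ZFP36L2 gave 2829, 2122, 2179 and 2040.3 (adjusted p = 0.00951 by limma) and passed in 10 of 12 such fits. NFKBIB gave 308, 543, 394 and 368 (adjusted p = 0.0301 by limma) and passed in 8 of 12. KLF4 and JUN passed in 4 of 12 and KLF6 in 0 of 12, and these 3 calls were close to the threshold (adjusted p = 0.0375, 0.0421 and 0.0498 by limma). The JUN means were 5273, 6916, 7105 and 7332, those of KLF4 656, 504, 486 and 449.9 and those of KLF6 1375, 1074, 1165 and 1245.

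**Figure D3:**
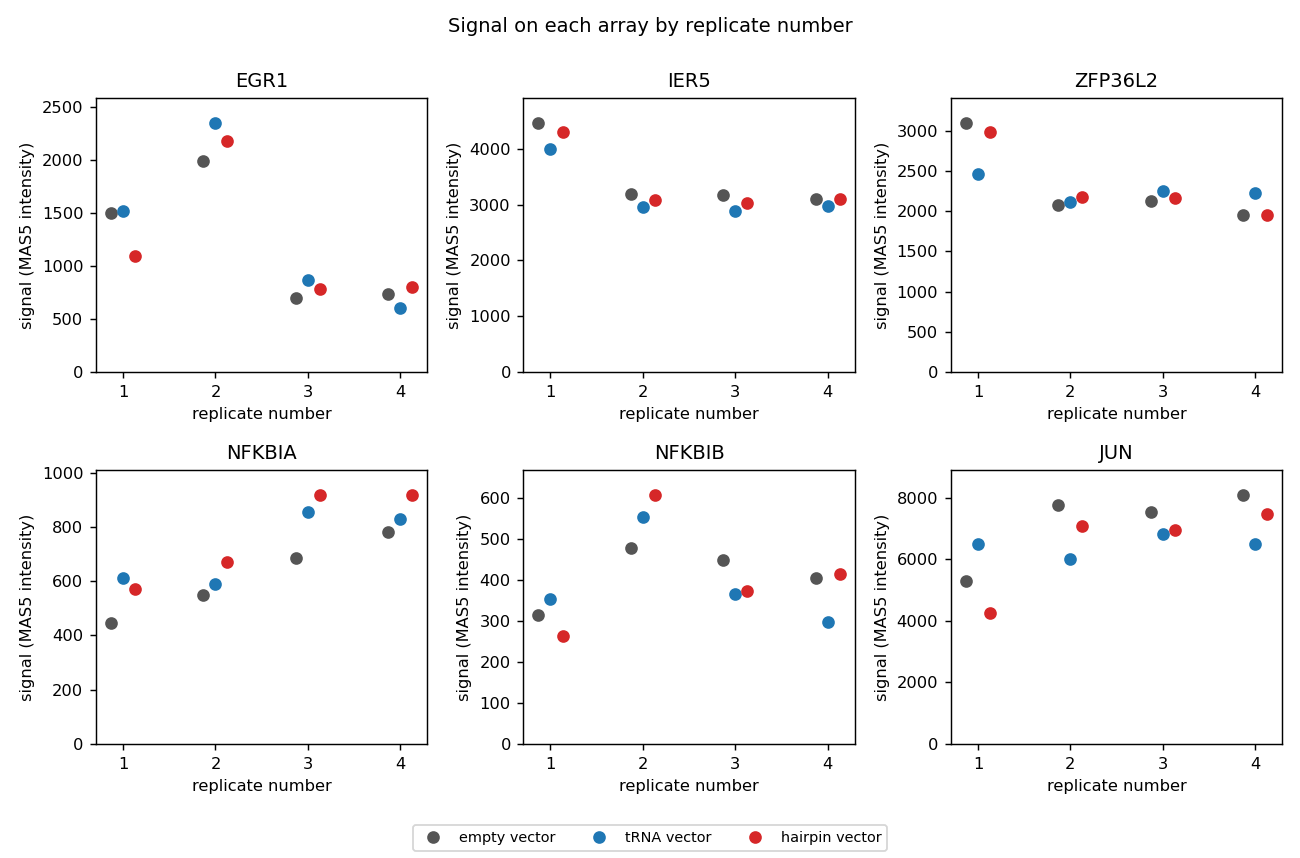
MAS5 signal of 6 genes on each of the 12 arrays against replicate number, coloured by vector. EGR1 is highest at number 2 and lowest at numbers 3 and 4 with every vector, IER5 and ZFP36L2 are highest at number 1, and NFKBIA is higher at numbers 3 and 4.

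Technical measures moved with the same numbers. Bacillus control RNAs, added during labelling and read by 15 probe sets, had mean signals of 1417 to 1495 on arrays 1, 273 to 335 on arrays 2, 21.9 to 28.1 on arrays 3 and 24.5 to 30.5 on arrays 4. The ratio of 3' to 5' ACTB signal, a measure of RNA or cRNA integrity, was 2.40 to 3.05, 2.45 to 3.30, 1.90 to 2.19 and 1.83 to 2.26 for numbers 1 to 4. For GAPDH it was 1.47 to 1.67, 1.20 to 1.38, 1.18 to 1.39 and 1.20 to 1.31. The labels do not say what arrays of 1 number share, and the part of labelling or RNA integrity in the differences between numbers was not tested. Each number holds 1 array of each vector.

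Probe sets of JUN, ATF3, KLF6, EGR1 and ZFP36L2 did not follow the number in the same way, whereas those of CCN1 did. The brightest JUN probe set was lowest at number 1, whereas 201466_s_at was highest there, with 5092, 3853, 3823 and 4266 for numbers 1 to 4 (adjusted p = 0.00265 by limma). JUN probe set 201465_s_at gave 279.7, 452, 714 and 676 which was higher at numbers 3 and 4 than at 1, and 213281_at gave 364, 536, 252 and 189.8, which was lower there. For ATF3, 1554980_a_at gave 667, 1080.4, 1125 and 1109.5, lowest at number 1, while the brightest probe set gave 10513, 10426, 9887 and 9459. For KLF6, 1555832_s_at gave 1271, 796, 1368 and 1432, lowest at number 2, as were the brightest and 208961_s_at. KLF6 probe sets 208960_s_at (227, 267, 285 and 303) and 211610_at (27.6, 56.2, 47.7 and 76.9) were lowest at number 1. Neither of these passed (adjusted p = 0.727 and 0.415 by limma). The second EGR1 probe set, 201694_s_at, gave 346, 368, 311 and 328 and did not pass (adjusted p = 0.75 by limma). ZFP36L2 probe set 201369_s_at gave 212, 274, 310 and 258, lowest at number 1, where the brightest was highest (adjusted p = 0.365 by limma). Further probe sets of NFKBIB (adjusted p = 0.497 and 0.257 by limma), KLF4 (adjusted p = 0.989 by limma) and NFKBIA (adjusted p = 0.983 by limma) did not pass either. The CCN1 probe sets 201289_at and 210764_s_at gave 367, 414, 536 and 471 and 262, 311, 377 and 347, both lowest at number 1 and highest at number 3, and neither passed (adjusted p = 0.0587 and 0.192 by limma).

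**Figure D4:**
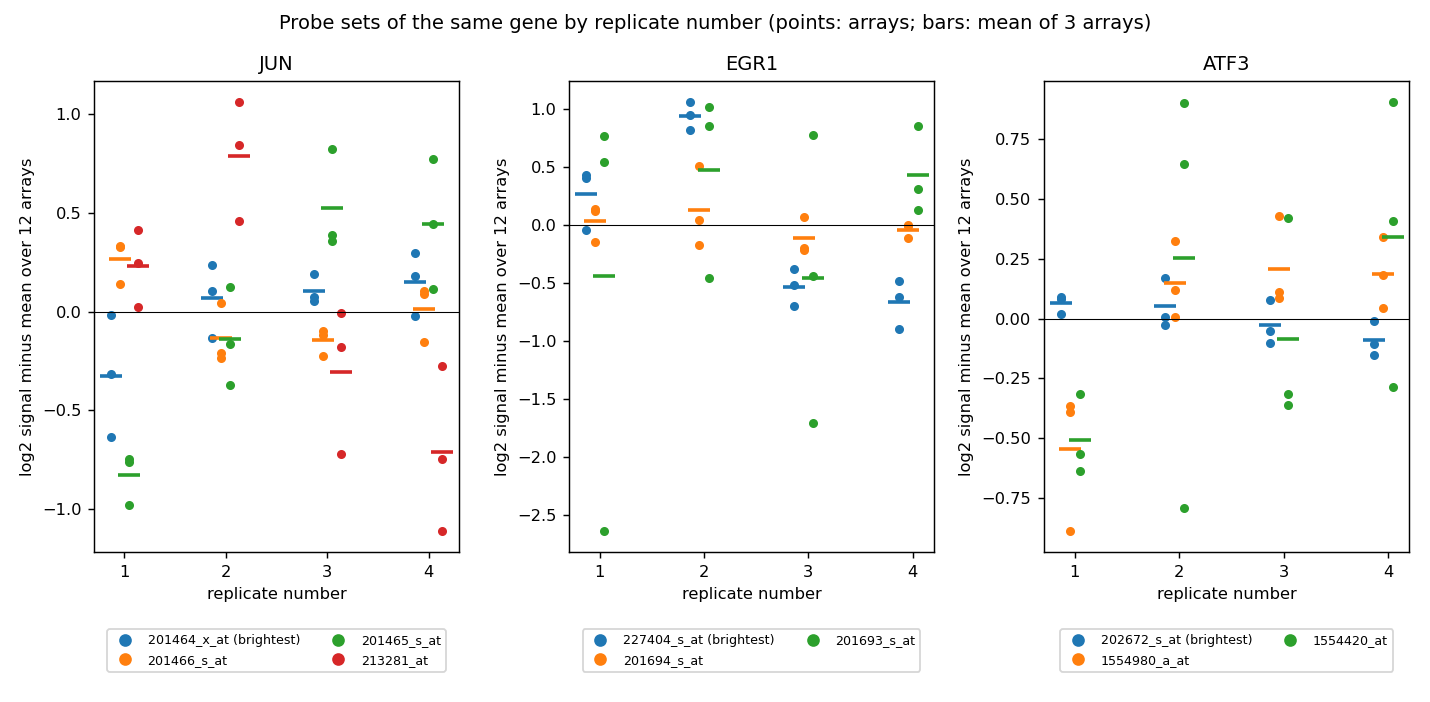
Log2 signal of each tested probe set of JUN, EGR1 and ATF3 minus its mean over the 12 arrays, against replicate number; points are arrays, offset by probe set, and bars the mean of the 3 arrays of a number. JUN probe sets 201464_x_at and 201465_s_at are lowest at number 1, 201466_s_at is highest there, and 213281_at is lowest at number 4. Of the 3 EGR1 probe sets the brightest alone drops at both numbers 3 and 4 with all its arrays.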

How the data were processed

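The arrays were Affymetrix oligonucleotide arrays with 54675 probe sets. The authors deposited 1 intensity per probe set and array, computed with MAS5 (no version) per the submitters' processing notes. The intensities are linear and scaled, with a 2% trimmed mean of 500.1 on every array. Genome build and scanner settings are not given in the sources used here. The array annotation gave 1 symbol to 41097 probe sets, several to 1801 and none to 11777, and 62 were controls.

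Signals were taken to log2 without an offset. Controls and 21845 dim probe sets, under the 40th percentile of mean log2 signal (a geometric mean of 43.3), were left out. The remaining 32768 were fitted in limma 3.58.1 (R 4.3.3) with 3 group means over the 12 arrays and eBayes with an intensity trend, two-sided, with Benjamini-Hochberg adjustment and a threshold of 0.05. Precision is limited by the number of arrays and, as the main fit left out the replicate number, by the differences between numbers. A gene was read from its brightest tested probe set of 1 symbol. Exact tests permuted the 8 arrays of a comparison freely across replicate numbers, with a smallest p of 0.0286. Differences between numbers are therefore part of the exact tests too. The replicate number was tested by an F test with the vector in the model, added after the values were seen. The scripts were tested on simulated data.

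The genes and lists were chosen with earlier results of these data known. Single signals and full statistics were given for FOS, JUN, EGR1, MYC, NFKB1, RELA, NFKBIA and TNFAIP3 and, per list and comparison, for the 2 highest and 2 lowest genes by moderated t. Promoters came from RefSeq, GRCh38.p14. Alternatives changed the normalization, offset, filter, trend, weights, block, probe set rule and arrays.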

Additional observations from a re-analysis of the deposited data

Results flagged for a closer look

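Single arrays that stood apart from the other three of their vector were looked for on the log2 scale in the 54 groups of the 18 genes given in full. There were 5, where chance gives about 1 in 20 groups. FOS had a signal of 34.3 on hairpin array 1, while the other hairpin arrays lay between 101 and 117. JUN was at 5303 on empty vector array 1, against 7540 to 8103 on the rest of that group. On hairpin array 1 JUN was at 4243, against 6953 to 7480. ZFP36 was at 222 on empty vector array 2, against 244 to 248. NFKB2 was at 257 on hairpin array 2, against 171 to 178. Of the 5 values, 3 were on empty vector array 1 or hairpin array 1, whose replicate number is the one with the highest Bacillus control RNA signals, and the part of that in these values was not tested.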

How the results depend on the processing

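Counts of called probe sets over the whole array were 0 in each comparison. With the labelling control level as a block they were 4, 3 and 8 for tRNA against empty, hairpin against empty and hairpin against tRNA vector, with array weights 1 for hairpin against tRNA, and with the replicate block 6 for hairpin against tRNA. None of these probe sets belonged to the 56 genes, and the genes around these lists, such as MAP2K4, were not checked for them. Same-number arrays deviated together at r = 0.0987 to 0.356 in 12 pairs and different-number arrays at -0.231 to 0.148. Among the latter, values above 0.0203 were all between numbers 3 and 4, which had the same control RNA level. Arrays of 1 number thus shared variation. Because 1 pair was under 0.1, the main fit did not take the numbers as pairing, although all 12 were above 0. Its errors, p values and intervals therefore include differences between numbers. With the replicate block, NFKBIA for hairpin minus empty vector had limma's unadjusted p = 0.00509 and adjusted p = 0.852. List medians kept their sign in 15 of 23 alternatives for NF-kB genes between hairpin and tRNA vector (-0.12 without a filter), in 18 with the tRNA vector (-0.040 with the mean of all tested probe sets) and in 17 with the hairpin vector (-0.043 without hairpin array 2) against the empty vector, in 21 for immediate early genes with the hairpin vector (0.020 without empty vector array 2), and in all 23 for the other two. Some differences changed sign, and none of those passed the test. With array weights, hairpin minus tRNA vector was 0.060 for JUN and 0.013 for NFKB1, and hairpin minus empty vector was 0.0078 for EGR1 and 0.027 for NFKB1. With the mean of all tested probe sets, EGR1 gave 0.46 for hairpin minus empty and 0.24 for hairpin minus tRNA vector. NFKBIA then gave -0.39 with the tRNA and -0.18 with the hairpin vector against the empty vector, TNFAIP3 -0.072 for hairpin minus tRNA vector, DUSP6 -0.40 and REL -0.072 for hairpin minus empty vector, and REL -0.14 and ICAM1 0.11 for hairpin minus tRNA vector. Leaving out 1 array at a time gave JUN -0.31 to 0.018 for hairpin minus empty and -0.12 to 0.15 for hairpin minus tRNA vector. EGR1 ran from -0.26 to 0.39 for tRNA minus empty, -0.33 to 0.28 for hairpin minus empty and -0.40 to 0.25 for hairpin minus tRNA vector. NFKB1 ran from -0.031 to 0.058, from -0.052 to 0.037 and from -0.050 to 0.011 in the same order. RELA ran from -0.13 to 0.092 with the tRNA and from -0.016 to 0.20 with the hairpin vector against the empty vector, and TRAF1 from -0.45 to 0.037 with the tRNA vector. NFKBIA ran from -0.0096 to 0.22 and TNFAIP3 from -0.091 to 0.12 for hairpin minus tRNA vector. The count of genes that differ between replicate numbers was 440 without the intensity trend, and 3 of the 49. Leaving out 1 array gave 1090 (without hairpin array 1) to 2068 genes, with 1252 without tRNA array 1, and 3 to 8 of the 49. The cause of these shifts was not tested. Signals near the filter limit what can be said of DUSP2, DUSP4, DUSP6, ARC, PTGS2, FOSB, EGR4, CCN2, RELB, ICAM1, TRAF1 and CXCL8.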
